A study of Bos taurus with 6 samples.

Results

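Calpain 1 and calpastatin form a protease and inhibitor pair, and their genes CAPN1 (ENSBTAG00000010230) and CAST (ENSBTAG00000000874) were followed in 2 cell types of bovine muscle. The genes were chosen by name and identifier and make up 2 of the 27607 genes of the count table. Both passed the filter on low counts, along with 14037 other genes. Fibro-adipogenic progenitors (FAPs) are the resident mesenchymal cells that give rise to fat and fibrous tissue in muscle, and satellite cells (SCs) are its myogenic stem cells. Both were isolated from the semitendinosus muscle of Belgian blue cattle and separated by FACS, with FAPs taken as CD29+ and SCs as CD29+/CD56+ cells. FAPs lacked CD56, and cells carrying CD31 or CD45, which mark endothelial and blood cells, were left out of both. Each cell type was then seeded at 2000 cells per cm2 on collagen and kept for 72 h in growth medium with 20% serum and 5 ng/ml bFGF, without any differentiation stimulus. RNA was sequenced from 3 replicate libraries per cell type, which carry the letters A to C. By the study's methods the cattle were males and females of a range of ages. Which of these animals, and how many, gave the 6 libraries is not given in the sources used here, so that all p-values measure the spread between these libraries, which may be technical.

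Calpains are cysteine proteases of the cytosol that need calcium for activity and cut their substrates at a few sites rather than degrading them. Calpain 1 is a heterodimer, in which CAPN1 encodes the large catalytic subunit, and its substrates include cytoskeletal and adhesion proteins such as talin, spectrin and desmin. Calpastatin is the inhibitor specific to calpain 1 and calpain 2, a flexible protein whose repeated inhibitory domains bind the calcium-loaded enzyme. In beef the pair is best known from the ageing of meat, in which calpain 1 cuts myofibrillar proteins after slaughter and calpastatin limits it, and in culture calpains take part in the migration and fusion of myoblasts. RNA levels were measured here, not protein or protease activity.

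The library totals lay between 19666738 and 37791193 counted reads, and the counts were spread over genes differently in each cell type. The 10 most counted genes held 22.5% to 24.0% of the counts in FAP libraries and 7.73% to 8.02% in SC libraries. Library-total CPM set the reads of a gene against all reads of its library. The TMM factors of edgeR, which set the libraries level over the bulk of the genes, were 0.817 to 0.839 in FAPs and 1.195 to 1.209 in SCs. The median log2 fold change (log2-FC, FAPs minus SCs) of all tested genes was -0.035 with TMM factors and -0.57 with library totals, and both scales are given for each gene. The identifiers could not be paired with names in the gene table used here, so the cell types were not checked against marker genes.

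The catalytic subunit gene CAPN1 was counted at a similar level in both cell types once libraries were scaled with TMM factors. TMM-adjusted CPM of CAPN1 were 141, 140 and 132 in FAPs A, B and C. In SCs A, B and C they were 169, 140 and 125. SCs A was the highest of the 6 libraries and SCs C the lowest, and the 3 FAP libraries lay between them, so that the cell types overlapped. CAPN1 averaged 138 ± 4.68 CPM (SD, n = 3) in FAPs and 145 ± 22.6 CPM (SD, n = 3) in SCs on this scale. The log2-FC of CAPN1 was -0.069 with a standard error of 0.0948. Its adjusted p was 0.530 (edgeR quasi-likelihood test, adjusted by Benjamini and Hochberg's method over all tested genes). The 95% interval of the CAPN1 log2-FC ran from -0.28 to 0.14, equal to a level in FAPs of 82.6% to 110.1% of that in SCs. A difference of up to these sizes was therefore not shown to be absent. Without SCs A the log2-FC of CAPN1 changed sign to 0.060, and without SCs C it was -0.16, with adjusted p of 0.393 and 0.0669 from the same test. Without FAPs C it was -0.023, with an adjusted p of 0.873. With each library left out in turn, no fit passed an adjusted p of 0.05 for CAPN1, and the adjusted p ran from 0.0669 to 0.873.

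On library totals the same counts gave a lower CAPN1 level in FAPs. CAPN1 stood at 115, 117 and 111 CPM in FAPs A, B and C and at 202, 169 and 151 CPM in SCs A, B and C, with no overlap between the cell types. As a background, 85.8% of all tested genes had no overlap on this scale, and 67.2% were lower in FAPs without overlap. The CAPN1 log2-FC was -0.60 on library totals, with a standard error of 0.0922 and its adjusted p was 4.37e-05 in the same edgeR test. Set against the median of all tested genes, the CAPN1 difference was -0.034 with either scaling. In the ordering of all tested genes, 48.1% had a lower log2-FC than CAPN1 with TMM factors and 48.1% with library totals, which puts it close to the middle of the genes. A change of scaling moves all genes by nearly the same amount, so the agreement between scalings was fixed in advance. Scaling thus decided whether the test called CAPN1 lower in FAPs.

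**Figure D1:**
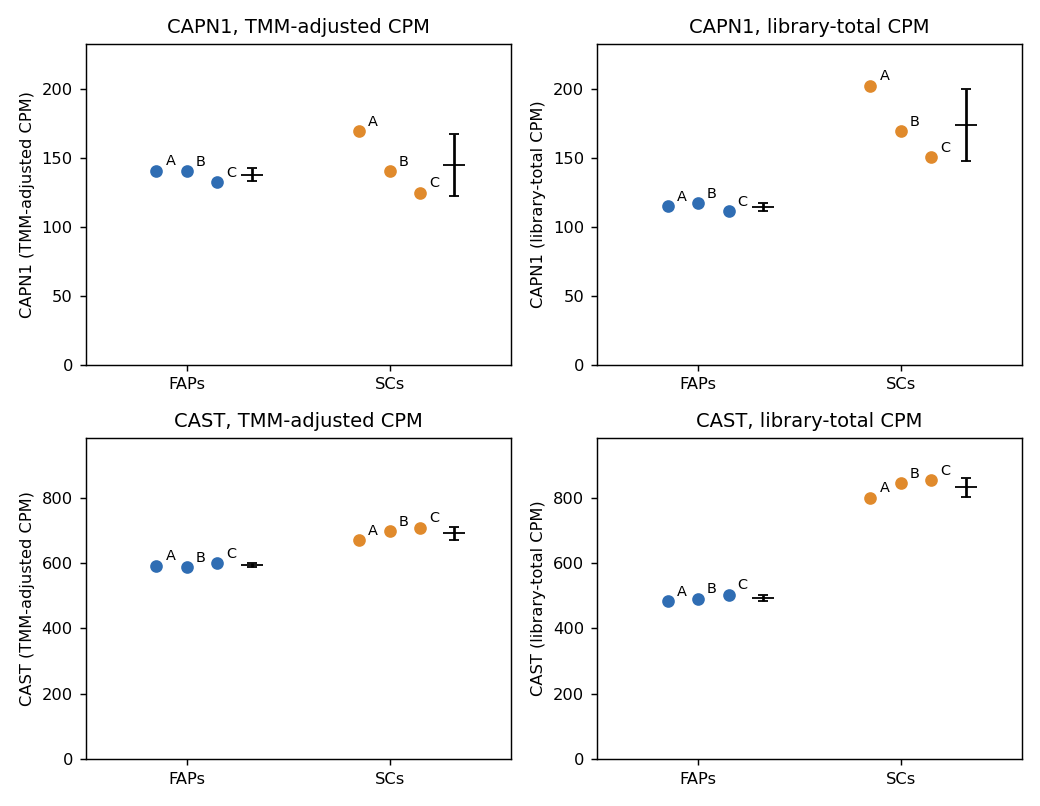
CAPN1 (top) and CAST (bottom) in each library, as TMM-adjusted CPM (left) and library-total CPM (right), with letters naming the libraries and bars giving the mean and SD of 3 libraries. CAST in FAPs lies below SCs in all panels, while CAPN1 in FAPs overlaps with SCs on TMM-adjusted CPM and lies below on library totals.

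The inhibitor gene CAST was lower in FAPs with both scalings, by a modest amount. TMM-adjusted CPM of CAST were 591, 587 and 599 in FAPs A, B and C. In SCs A, B and C they were 669, 698 and 707. Each FAP library lay below each SC library, as it did for 38.0% of all tested genes on this scale, and 74.5% of tested genes had no overlap in one direction or the other. CAST averaged 593 ± 5.88 CPM (SD, n = 3) in FAPs and 691 ± 19.9 CPM (SD, n = 3) in SCs. Its log2-FC was -0.22 with a standard error of 0.0552, so that the FAP level was 85.7% of that in SCs, with a 95% interval from 78.8% to 93.2%. The adjusted p of CAST was 0.00320 in the edgeR test, and 36.5% of tested genes were called lower in FAPs at an adjusted p below 0.05 with these factors. Over its alternatives the adjusted p of CAST ran from 2.98e-10, on library totals without SCs A, to 0.0390, with TMM factors without FAPs B (both edgeR). The fit on library totals without SCs A was added after seeing the data. With TMM factors and each library left out, the lowest adjusted p of CAST was 4.01e-04 in the edgeR test. The exact two-sided permutation test on the 6 libraries gave p = 0.1 for CAST, the smallest p that 3 libraries against 3 allow, and p = 0.9 for CAPN1.

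On library totals the CAST difference was larger. CAST stood at 483, 490 and 503 CPM in FAPs A, B and C and at 799, 843 and 854 CPM in SCs A, B and C. FAPs were again below SCs in every library, as for 67.2% of tested genes, and 85.8% had no overlap in one direction or the other. The log2-FC of CAST was -0.76 (standard error 0.0578), with an adjusted p of 6.79e-08 by edgeR. At an adjusted p below 0.05, 67.3% of tested genes were called lower in FAPs on this scale. Set against the median of all tested genes the CAST difference was -0.19 with either scaling, an agreement that was fixed in advance as for CAPN1. Among all tested genes, 38.8% had a lower log2-FC than CAST with both scalings, so that shifts of this size were common among the genes compared.

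With the fold change cutoff of the study's methods, an absolute log2-FC above 1 together with an adjusted p below 0.05, 0 of the 2 genes were called with TMM factors and 0 with library totals. By that rule 28.1% of tested genes were called with TMM factors, 13.6% as lower in FAPs, and 36.2% with library totals, 27.0% as lower in FAPs. At an adjusted p below 0.05 without the cutoff, 71.2% of tested genes were called in either direction with TMM factors and 85.3% with library totals. Whether fewer transcripts per cell or fewer cells with the transcript lie behind a lower level cannot be told apart in RNA from whole cultures.

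**Figure D2:**
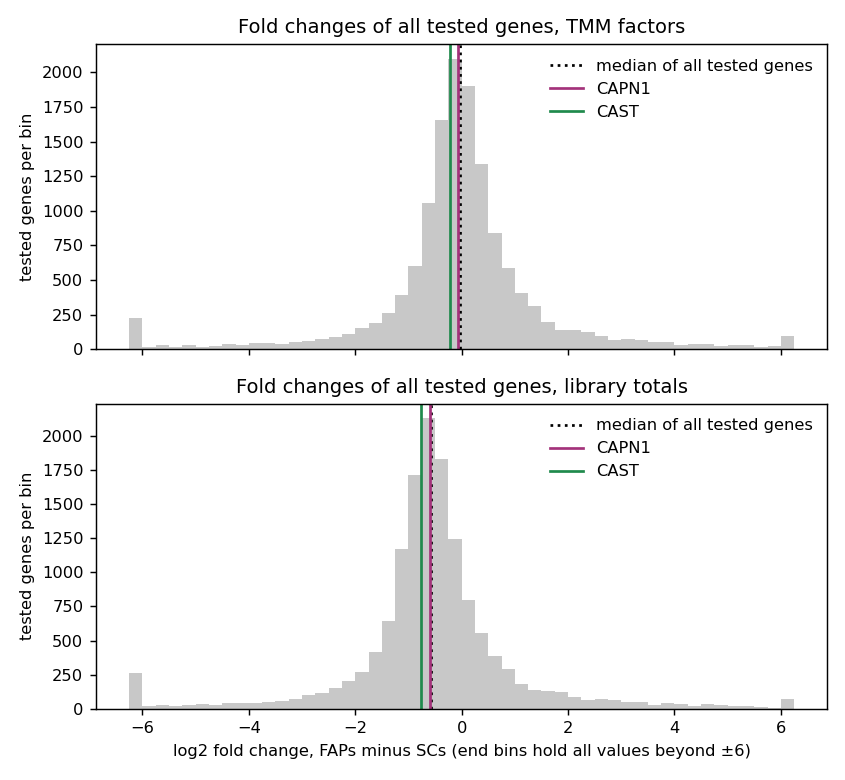
Number of tested genes by log2-FC (FAPs minus SCs, bins of 0.25) with TMM factors (top) and library totals (bottom), with lines for CAPN1, CAST and the median of all tested genes. The median moves from -0.035 to -0.57 and both genes move with it, with CAPN1 at the median and CAST 0.19 below it.

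The place of each gene in its own library does not depend on the scaling. By count, CAST ranked between 226 and 237 among the 14039 tested genes in FAPs and between 118 and 137 in SCs, with no overlap between the cell types (exact two-sided permutation test on the ranks, p = 0.1, n = 3 in each group). Of all tested genes, 74.5% had ranks without overlap, and 40.2% ranked lower in FAPs without overlap. CAPN1 ranked between 1344 and 1483 in FAPs and between 916 and 1375 in SCs, with overlap (exact two-sided permutation test, p = 0.3, n = 3 in each group). Both genes thus stood among the more counted genes of each library, CAST within the top 1.69% and CAPN1 within the top 10.6%. These ranks are by count and were not corrected for transcript length.

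The ratio of CAST to CAPN1 counts within a library compares inhibitor with protease without any scaling. Gene lengths on the build of the counts were not used here, so the ratio gives relative change between libraries and not the number of inhibitor transcripts per protease transcript. It was 4.20, 4.18 and 4.52 in FAPs A, B and C. In SCs A, B and C it was 3.95, 4.98 and 5.67. SCs B and SCs C lay above all FAP libraries and SCs A lay below them, so that the cell types overlapped. The ratio averaged 4.30 ± 0.190 (SD, n = 3) in FAPs and 4.87 ± 0.866 (SD, n = 3) in SCs. On the log2 scale the difference, FAPs minus SCs, was -0.16 with a standard error of 0.157, and the exact two-sided permutation test gave p = 0.4 (n = 3 in each group), where 0.1 is the smallest p possible. A difference between the cell types in the balance of CAST and CAPN1 RNA was thus not larger than the spread between libraries. Without SCs A, when both remaining SC libraries lay above the FAP libraries, the log2 difference was -0.31 (exact permutation test, p = 0.1), and without SCs C it was -0.045 (exact permutation test, p = 0.8).

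**Figure D3:**
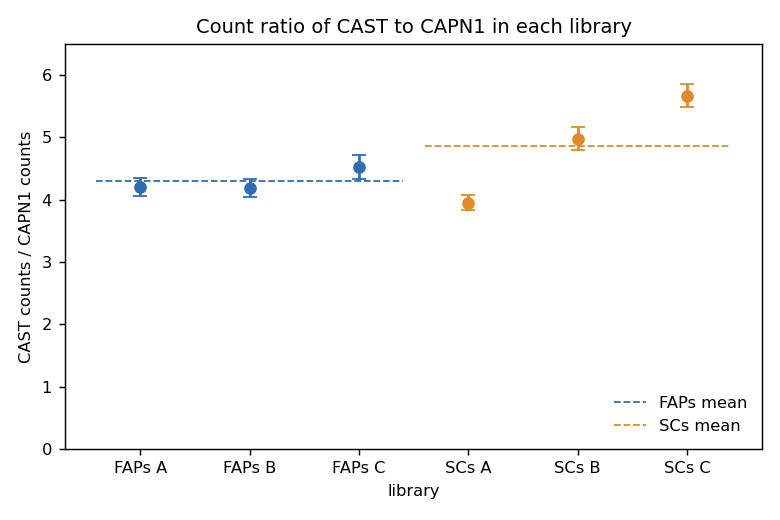
Ratio of CAST to CAPN1 counts in each library, with bars for the exact 95% counting interval and dashed lines for the mean of each cell type. FAPs lie between 4.18 and 4.52, and SCs spread from 3.95 to 5.67 on both sides of them.

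The spread of the ratio in SCs came with CAPN1 rather than CAST. Between the highest and lowest SC library, TMM-adjusted CPM of CAPN1 differed 1.36-fold and those of CAST 1.06-fold. In FAPs they differed 1.06-fold for CAPN1 and 1.02-fold for CAST. The coefficient of variation of CAPN1 in SCs was 15.6%, where counting error alone gives 1.51%, against 3.39% and 1.70% in FAPs. For CAST it was 2.88% in SCs and 0.992% in FAPs, with counting errors of 0.689% and 0.817%. Ordered by the SD of log2 CPM within SCs, 75.4% of tested genes varied less than CAPN1, and 8.21% varied less than CAST. Within FAPs, 25.3% varied less than CAPN1 and 3.41% varied less than CAST. In this order CAPN1 was among the more variable genes in SCs and among the steadier ones in FAPs, while CAST was steady in both. The order was not matched for level, and genes with fewer counts than these vary more by counting error alone. A low place in it therefore does not show that a gene is steady for its level. The median SD over all tested genes was also larger in SCs, at 0.130 against 0.0857 in FAPs. SCs A and SCs C, the highest and lowest SC libraries for CAPN1, also differed most over all tested genes. Their chi-square per degree of freedom, 27.0, was the largest of any pair within a cell type. The difference in spread between the cell types was not tested.

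The counting intervals of the ratio show the same for single libraries. The exact 95% interval of the ratio was 3.84 to 4.07 in SCs A, 4.80 to 5.17 in SCs B and 5.50 to 5.86 in SCs C, with no overlap among these 3 libraries. In FAPs A it was 4.07 to 4.34 and in FAPs B 4.04 to 4.33, almost the same range, and in FAPs C it was 4.33 to 4.72. The interval of SCs A overlapped those of FAPs A and FAPs B, while those of SCs B and SCs C lay above all FAP intervals. Such intervals cover counting error only, and they treat reads as independent. Reads from amplified libraries are not independent molecules, so the intervals may be too narrow. The intervals rest on 2528 to 5701 reads of CAPN1 and 11428 to 25714 reads of CAST per library.

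RLE factors gave log2-FC close to those of TMM factors, -0.060 for CAPN1 and -0.21 for CAST, and the remaining scalings placed both genes between TMM factors and library totals. With upper-quartile factors the log2-FC was -0.17 for CAPN1 (adjusted p = 0.117, edgeR) and -0.32 for CAST (adjusted p = 2.15e-04, edgeR). With library totals taken without the 10 most counted genes it was -0.34 for CAPN1 and -0.50 for CAST. The tool mattered less than the scaling. Limma-voom, the package used in the study, gave -0.057 for CAPN1 and -0.22 for CAST, and DESeq2 gave -0.060 and -0.21.

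**Figure D4:**
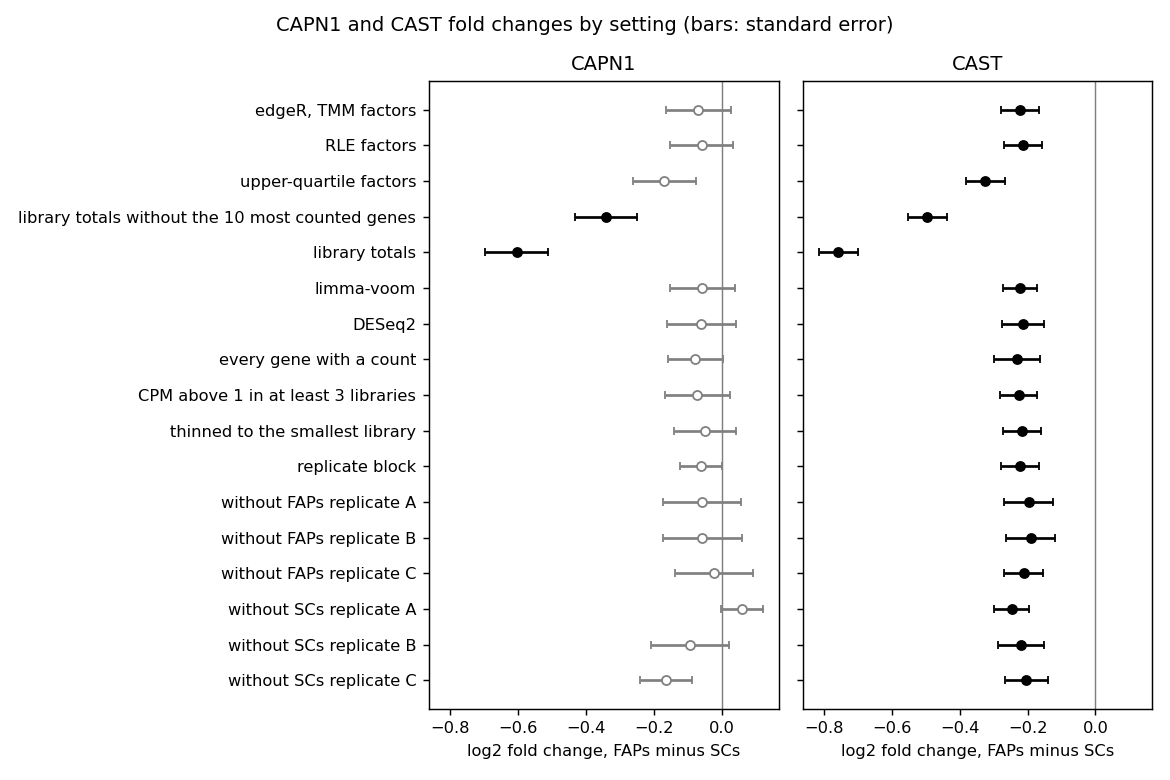
Log2-FC (FAPs minus SCs, points) with standard errors (bars) for CAPN1 (left) and CAST (right) under each setting, with filled points for an adjusted p below 0.05. CAST has a log2-FC under 0 and a filled point at every setting shown, and CAPN1 has filled points with library totals and with library totals without the 10 most counted genes.

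The genes whose level followed each of the pair most closely over the 6 libraries could be given by identifier only. For CAPN1 it was ENSBTAG00000003268, with Pearson's r of 0.996 on log2 TMM-adjusted CPM, at 44.7 ± 0.567 CPM (SD, n = 3) for FAPs and 45.3 ± 2.92 CPM (SD, n = 3) for SCs. Besides CAPN1 itself, 60 of the tested genes had an r above 0.95 with it. For CAST it was ENSBTAG00000032446, with an r of 1.00, at 21.4 ± 0.388 CPM (SD, n = 3) for FAPs and 30.9 ± 2.05 CPM (SD, n = 3) for SCs. For CAST, 2091 genes had an r above 0.95, as an r over 6 libraries in 2 separate groups follows the difference between the groups. These values are descriptions over 6 libraries, in each of which all genes share depth and scaling factor, and no test was made on them. The other calpains, the small regulatory subunits and the calpain substrates were not analysed here, because their identifiers could not be paired with names.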

How the data were processed

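RNA sequencing was analysed in 3 FAP and 3 SC libraries, grouped by the titles of the samples. The authors prepared stranded poly(A) libraries, aligned single-end reads of 75 bp with STAR 2.7 to bosTau9 and assigned them to Ensembl genes with featureCounts. Raw counts were deposited, without normalisation, and 0 columns of other samples stood in the table. How strand, multi-mapping and overlapping genes were treated is not stated. In the gene table used here (another assembly, ARS-UCD2.0), CAST overlapped 0 other genes and CAPN1 overlapped 1, the microRNA gene MIR2407. That table matched 0 of 27607 identifiers, so the names CAPN1 and CAST came with the choice of the genes, and the lists of calpain system genes, substrates, other proteases and cell type markers gave no values.

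Genes were filtered with filterByExpr (minimum count 10), normalised by TMM and compared by quasi-likelihood in edgeR 4.0.16 (R 4.3.3; prior count 0.125), using cell type as sole term. Adjusted p-values are over all 14039 tested genes. Alternatives were voom in limma 3.58.1, the package of the study's methods, DESeq2 1.42.0, other scalings and filters, thinning to the smallest library, a replicate block and leaving out each library. A floor of 3 counts equals 0.0794 to 0.153 CPM. Read counts of libraries of one cell type differed by more than counting error (chi-square per degree of freedom 3.97 to 27.0), and none was counted as a duplicate of another. The rule for named genes took both genes, all listed genes that could be paired with an identifier, and the most similar gene of each. Genes and lists were chosen with earlier results of these data known.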

Additional observations from a re-analysis of the deposited data

How the results depend on the processing

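CAST kept its direction under all 25 alternatives and an adjusted p below 0.05 wherever one was computed. The exact permutation test (log2 difference -0.22, p = 0.1) cannot pass 0.05 with 3 libraries against 3. With TMM factors and each library left out, the log2-FC of CAST ran from -0.25 to -0.19.

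CAPN1 depended on the scaling. Its log2-FC was -0.34 on library totals without the 10 most counted genes (adjusted p = 0.00462, edgeR), -0.60 on library totals (adjusted p = 4.37e-05, edgeR) and -0.59 with limma-voom on library totals (adjusted p = 7.78e-05), the last added after seeing the data. On library totals with each library left out, also added, it ran from -0.70 to -0.48. With TMM factors and each library left out it ran from -0.16 to 0.060, the positive value being that without SCs replicate A. Over all its alternatives, the added ones included, the adjusted p of CAPN1 ran from 4.57e-08 to 0.873. The median of all tested genes was -0.035 with TMM factors and -0.57 with library totals. SCs A held the highest TMM-adjusted CPM of CAPN1, 169, and the sign changed when it was left out. Why CAPN1 was higher in that library was not tested.

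The ratio difference was negative in each analysis, from -0.31 to -0.045 (log2) with each library left out, and its tests cannot reach 0.05 at this number of libraries. Without a log2 transform it was -0.57 ratio units.

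Whether libraries of the same letter belong together is not stated. Their deviations from the cell type means correlated at 0.199 (A), 0.0134 (B) and 0.167 (C). Of the 6 libraries, 4 correlated best with their own letter, which does not settle whether the letters pair the libraries. With the replicate block, the log2-FC was -0.061 for CAPN1 (adjusted p = 0.375, edgeR) and -0.22 for CAST (adjusted p = 9.80e-04, edgeR), 3942 genes were called with the cutoff and 10649 without, and the ratio difference stayed at -0.16 (exact sign changes, p = 0.5). Counts of calls stayed within 1.5 times their first value under all alternatives. The share of calls higher in FAPs fell from 51.6% to 25.3% on library totals and to 38.3% without the 10 most counted genes. The count of calpain system genes was not run.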
